A study of Rattus norvegicus with 48 samples.

Results

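The genes for translation initiation factors were examined in ribosome-bound RNA from the nucleus accumbens of rats after cocaine self-administration. They were taken as every entry named Eif1 to Eif6 in the deposited count table, without the Eif2ak kinases and without Eif2s3y, at a mean level of at least 1 CPM (counts as a share of the library total, on the usual per-million scale) over the 48 libraries. Of 51 such names, 4 Eif2ak kinases and Eif2s3y were set aside, and all of the other 46 genes reached the level. They are 46 of 32883 entries in the table and 46 of 15580 genes tested. Eif4e1b lay just inside the level at 1.00 CPM and Eif4ebp2 was next at 3.48 CPM, while no gene of this name pattern lay outside it. No member was lost to the test's own filter on low counts. Eif3e, Eif3l, Eif4b and Eif4e2 were not analysed here.

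Each library was made by translating ribosome affinity purification (TRAP), in which tagged ribosomes are pulled from a tissue lysate by antibodies to green fluorescent protein and their RNA is sequenced. The tag was restricted to medium spiny neurons, the projection neurons of the striatum, of one kind. D1:Cre rats gave neurons that express the dopamine D1 receptor, and A2a:Cre rats gave neurons that express the adenosine A2a and dopamine D2 receptors; how the tag was delivered is not given in the sources used here. Adult males and females were used, and the labels do not give the sex of each library. For each genotype there were 8 rats killed 40 days after 10 cocaine sessions, 8 killed 1 day after 10 cocaine sessions and 8 killed 1 day after 10 saline sessions. The series title relates the work to incubation of craving, the growth of cue-induced drug seeking over withdrawal. Saline rats at day 40 are not analysed here, so day 40 against saline differs in drug and in day.

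Initiation brings a ribosome, the initiator transfer RNA and a messenger RNA together at the start codon. eIF2 carries the initiator transfer RNA bound to GTP, and eIF2B recharges eIF2 with GTP; phosphorylation of eIF2 blocks that exchange and is the switch of the integrated stress response, which is known to shape synaptic plasticity and memory. eIF3 is the scaffold on the small subunit, the eIF4F complex (cap-binding eIF4E, scaffold eIF4G and helicase eIF4A) recruits capped messages, 4E-binding proteins hold eIF4E back when mTOR signalling is low, and eIF1, eIF1A, eIF5 and eIF5B govern start codon choice and subunit joining. Most of this control works on the proteins, which RNA counts do not measure.

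Library totals ran from 5293586 to 55095383 counts, with the lowest in A2a cocaine day 1 replicate 7 and the next at 24538643. The D1 markers Drd1, Pdyn, Chrm4 and Isl1 and the A2a markers Drd2, Adora2a, Penk, Gpr6 and Sp9 all separated the neuron types in the labelled direction in each of the 3 conditions (edgeR adjusted p under 0.05; Tac1 was not among the genes tested). Interneuron markers also differed: the summed level of Sst, Chat and Lhx6 was 642 to 1216 CPM in D1 cocaine day 40 libraries and 201 to 363 CPM in A2a cocaine day 40 libraries, and 2 of the 3 were higher in D1 in each condition. Between D1 cocaine day 40 and D1 cocaine day 1 libraries, 2 of 5 microglia markers were lower (sums of 63.4 to 113 CPM against 58.7 to 269 CPM, which overlap), 5 of 5 interferon-induced genes were lower (1.85 to 22.2 CPM against 7.04 to 109.5 CPM), and 1 of 4 striatal neuron markers, Gng7, was lower (2596 to 6137 CPM against 4639 to 6210.1 CPM for the 4). Striatal neuron markers were also lower in D1 than in A2a libraries for 2 of 4 at cocaine day 40, 2 of 4 after saline and 3 of 4 averaged. No summed list was at 0 in any library. The part of these cells in the results below was not tested. In TRAP from tissue, fewer cells of a kind and less RNA per cell cannot be told apart. The middle number of the sample descriptions was 85 in every D1 day 40 library, 88 in every A2a day 40 library and 89, 91 or 92 at day 1; what the number stands for is not given, and within a neuron type it cannot be told apart from the day, nor at day 40 from the neuron type.

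Summed over the members, the level differed little between groups. It had medians of 7436 CPM in D1 cocaine day 40, 7277 CPM in D1 cocaine day 1, 7293 CPM in D1 saline, 7356 CPM in A2a cocaine day 40, 7469.6 CPM in A2a cocaine day 1 and 7321 CPM in A2a saline. Single libraries ran from 6772 to 8281 CPM, and the groups overlapped. The members took 0.671% to 0.793% of all counts in a library. Within groups of 8, the median coefficient of variation was 8.09%, and 33 of the 46 members had a median below 10%. The steadiest were the helicase gene Eif4a1 at 4.15% and its cofactor gene Eif4h at 4.38%. Across the 6 drug and day comparisons within a neuron type, 37 of 46 members stayed within 0.2 on the log2 scale every time. In none of the 414 results of a member in a pair of groups were the groups free of overlap. Among all 15580 genes, the share without overlap was 0.244%, 0.0706%, 0.905%, 0.00642%, 0.0321% and 0.0193% in the drug and day pairs shown from left to right in the heat map of changes, and 3.34%, 2.39% and 2.57% in its neuron type pairs.

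**Figure D1:**
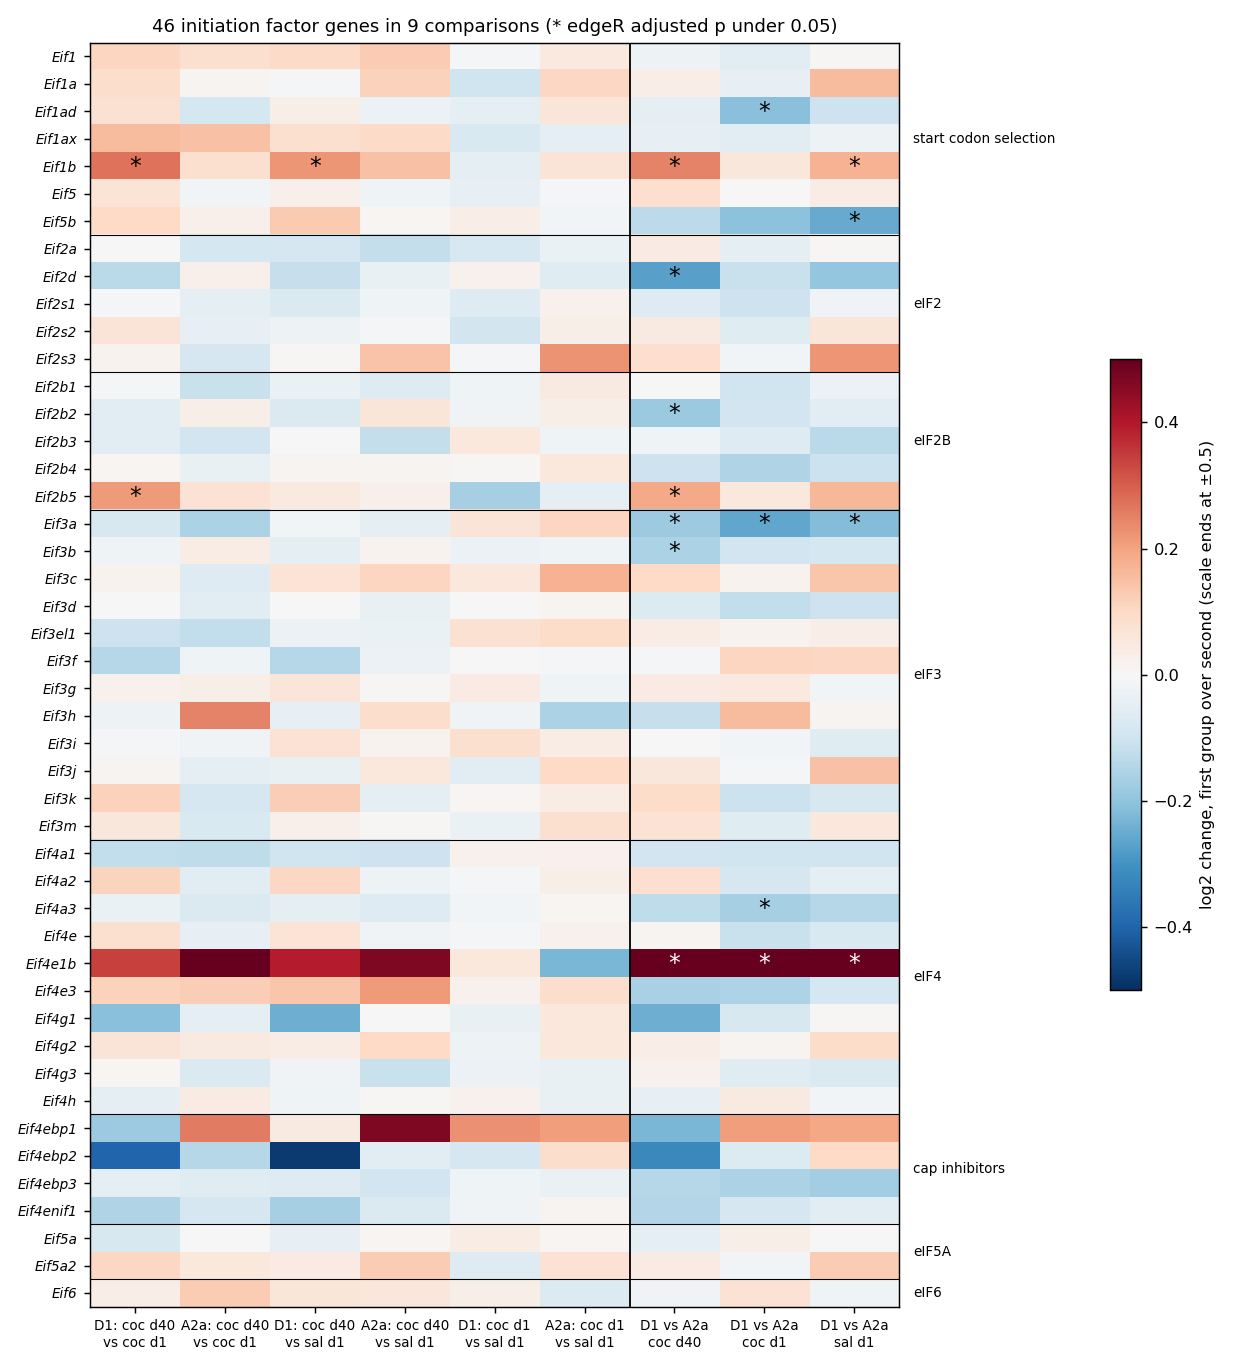
Log2 change of each of the 46 genes (rows, grouped by role) in 6 drug and day comparisons and 3 neuron type comparisons (columns; first named group over second), with asterisks at edgeR adjusted p under 0.05. The colour scale ends at 0.5, and few cells outside Eif4e1b and the 4E-binding protein genes are strongly coloured: 10 genes carry an asterisk in at least 1 column and 36 in none.

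The first question was what changed between day 1 and day 40 after cocaine. In D1 neurons 2 members rose and none fell: Eif1b, a paralog of the start codon factor gene Eif1, and Eif2b5, which encodes the catalytic subunit of eIF2B. The Eif2b5 call did not hold with no low-count filter (edgeR adjusted p = 0.0636), in a fit to these groups alone (0.0697) or without most single libraries, as given below. That is 4.35% of the members, against 1.85% of all genes tested that were called in either direction and 0.7% called higher. In A2a neurons 0 members passed edgeR's quasi-likelihood test, against 0.263% of all genes; 6 members (13%) had an unadjusted p under 0.05, against 10.5% of all genes, and DESeq2 called 1, Eif4a1. In D1 neurons 6 members (13%) did, against 15.3% of all genes. The median change over the members was 0.0095 in D1 and -0.039 in A2a neurons, beside -0.0064 and 0.00031 over all genes.

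Eif1b (ENSRNOG00000018848) held 224, 269 and 279.7 CPM (lowest, median and highest of 8) in D1 cocaine day 40 libraries, 197, 219 and 239 CPM in D1 cocaine day 1 libraries and 196, 229 and 245 CPM in D1 saline libraries. In the A2a libraries it held 191, 217 and 278 CPM at cocaine day 40, 178, 211 and 233 CPM at cocaine day 1 and 194, 196 and 214 CPM after saline. In D1 neurons 7 of 8 day 40 libraries lay above every cocaine day 1 library and above every saline library, and the eighth lay within both. Eif1b averaged 263 ± 17.9 CPM in D1 cocaine day 40 libraries and 218 ± 12.3 CPM in D1 cocaine day 1 libraries (SD, n = 8 each), a log2 change of 0.27 ± 0.057 (SE; edgeR adjusted p = 0.00671). Against D1 saline the change was 0.22 ± 0.057 (edgeR adjusted p = 0.0213), which was 0.20 with an adjusted p of 0.0508 without D1 saline replicate 1. In A2a neurons the same comparison of days gave 0.079 ± 0.057 (adjusted p = 0.656). The difference between the neuron types was 0.19 ± 0.080, with an unadjusted p of 0.0211 and an edgeR adjusted p of 0.365, so a day effect particular to D1 neurons was not called.

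**Figure D2:**
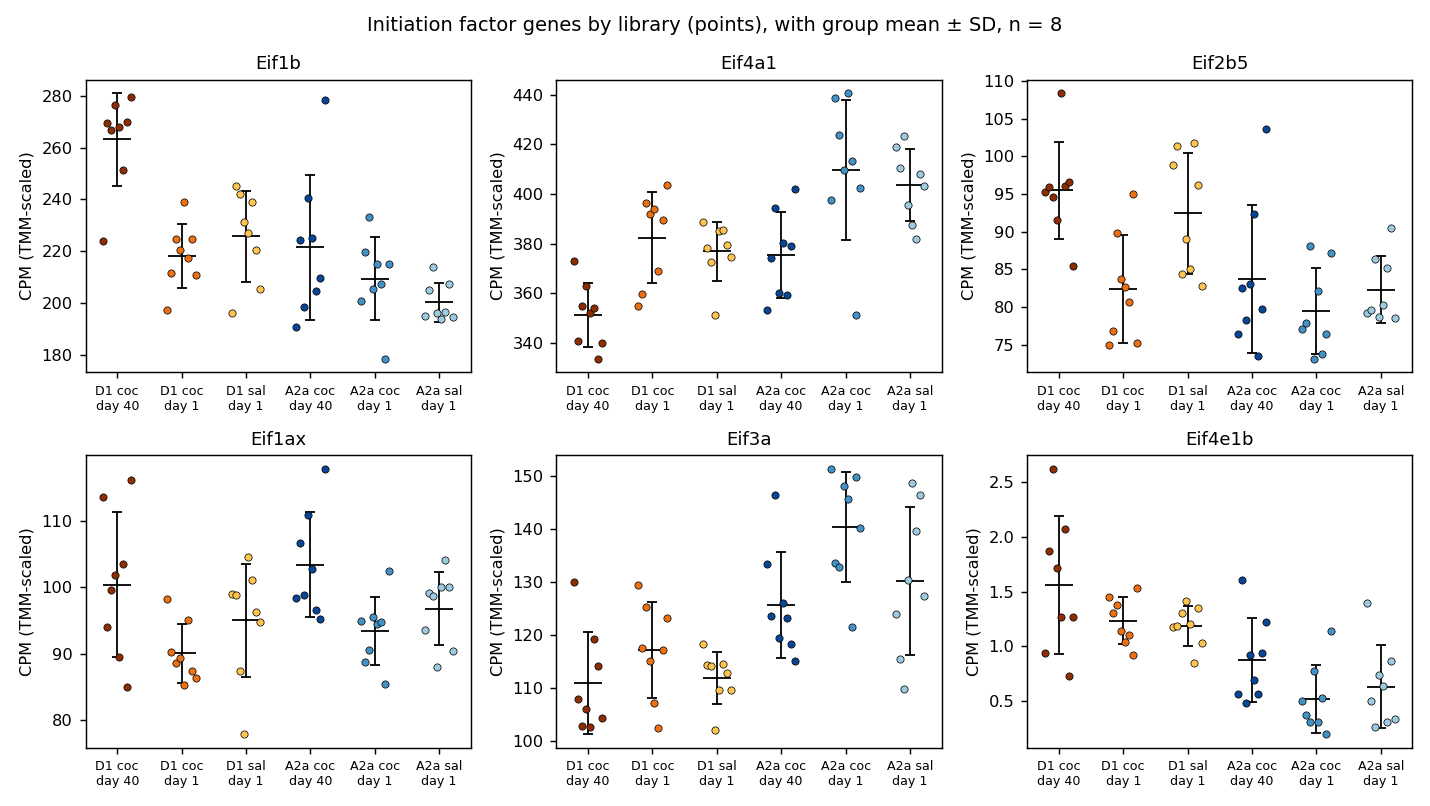
CPM on TMM-scaled library totals of 6 initiation factor genes in every library (points) of the 6 groups, with the mean and SD over 8 libraries; the vertical axes do not start at 0. In D1 cocaine day 40, 7 of 8 points of Eif1b stand above all other D1 points, Eif3a is lower in the D1 groups, and Eif4e1b lies near 1 CPM.

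The stretches just before the transcription starts of the paralogs Eif1b and Eif1 are shown because only Eif1b was called in both D1 day 40 comparisons. Eif1 was called in neither, though its log2 values were also above 0, at 0.11 against day 1 and 0.095 against saline. The difference between the 2 genes was not tested. The stretches are not part of the reads counted. The 250 bases upstream of the RefSeq start are given 5′ to 3′ on the gene's strand in the GRCr8 build, which is not the authors' build. Capitals mark letters matching any of 5 motifs on either strand: the E-box CACGTG, the CCAAT box CCAAT, the GC box GGGCGG, the TATA box TATAAA and the cyclic AMP response element half-site TGACG. Eif1b lies at chr8:129080908-129081157 on the plus strand for this stretch and Eif1 at chr10:85746887-85747136 on the plus strand.
Eif1b upstream: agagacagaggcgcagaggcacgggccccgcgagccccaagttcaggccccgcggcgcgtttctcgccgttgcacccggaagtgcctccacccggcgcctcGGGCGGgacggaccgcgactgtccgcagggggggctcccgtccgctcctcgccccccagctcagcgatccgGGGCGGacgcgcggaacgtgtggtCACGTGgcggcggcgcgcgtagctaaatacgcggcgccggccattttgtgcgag
Eif1 upstream: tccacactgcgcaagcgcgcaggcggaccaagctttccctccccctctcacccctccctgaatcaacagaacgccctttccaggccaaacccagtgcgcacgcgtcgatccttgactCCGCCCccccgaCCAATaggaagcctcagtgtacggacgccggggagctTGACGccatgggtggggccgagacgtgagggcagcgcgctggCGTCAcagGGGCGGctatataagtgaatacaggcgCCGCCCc
The Eif1b stretch holds 1 E-box and 2 GC boxes at 74.0% G and C, and the Eif1 stretch holds 1 CCAAT box, 3 GC boxes and 2 response element half-sites at 65.6%. Among the 42 members with an entry, 8 stretches held the E-box (19%, against 5.59% of all 33469 promoters), 29 the GC box (69% against 30.5%), 19 the half-site (45.2% against 18.2%), 12 the CCAAT box (28.6% against 34%) and 2 the TATA box (4.76% against 12.9%). The half-site can fall within a full response element. All members were expressed here, whereas the promoters set beside them were not chosen by expression. The members' median G and C content was also higher, at 60.0% against 51.2%, so these shares are descriptions of letters only. Eif3h, Eif4e3, Eif4ebp1 and Eif3el1 had no entry.

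The ratio of Eif1b to Eif1 counts in one library does not depend on the scaling between libraries. Its lowest, median and highest were 0.205, 0.235 and 0.292 in D1 cocaine day 40, 0.196, 0.214 and 0.236 in D1 cocaine day 1 and 0.199, 0.218 and 0.24 in D1 saline. The A2a medians were 0.20 at cocaine day 40, 0.201 at cocaine day 1 and 0.194 after saline. In D1 neurons 4 of 8 day 40 ratios lay above all day 1 ratios, so the groups overlapped more than for Eif1b alone. Eif1 itself held 926, 1092 and 1245 CPM in D1 cocaine day 40 and 895, 1025 and 1147 CPM in D1 cocaine day 1, a log2 difference of 0.11 ± 0.062 (edgeR adjusted p = 0.429). The reference annotation names 8 pseudogenes of Eif1 and none of Eif1b, and how reads shared with such copies were counted is not given.

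Of the 7 genes grouped under start codon selection by name alone, Eif1ad among them, only Eif1b passed between the days in D1 neurons. All 7 (Eif1, Eif1a, Eif1ad, Eif1ax, Eif1b, Eif5 and Eif5b) had day 40 over day 1 values above 0, from 0.068 for Eif5, the GTPase activator of eIF2, to 0.27 for Eif1b. In A2a neurons 5 of the 7 were above 0 and 2 below, and for D1 cocaine day 1 against saline, which shares the day 1 libraries, 1 was above and 6 below. Over all genes tested, 48.5% of D1 day 40 over day 1 changes were above 0. Eif1ax, the X-linked eIF1A gene, held 85, 101 and 116 CPM in D1 cocaine day 40 and 85.2, 89 and 98.2 CPM in D1 cocaine day 1. It held 95.2, 101 and 118 CPM in A2a cocaine day 40 and 85.4, 94.7 and 102 CPM in A2a cocaine day 1. Both pairs overlapped. Averaged over the neuron types its change was 0.15 ± 0.039 (edgeR adjusted p = 0.031), a call lost at adjusted p of up to 0.0551 without any one of 6 libraries: D1 cocaine day 40 replicate 8, D1 cocaine day 1 replicates 5 and 8, A2a cocaine day 40 replicates 4 and 8, and A2a cocaine day 1 replicate 7. Eif5 held 199, 206 and 223 CPM in D1 cocaine day 40 and 187, 197 and 210.1 CPM in D1 cocaine day 1.

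Among the eIF2 and eIF2B genes, only Eif2b5 passed between the days. Eif2b5 (ENSRNOG00000038160) held 85.4, 95.6 and 108 CPM in D1 cocaine day 40, 74.9, 81.7 and 95.1 CPM in D1 cocaine day 1 and 82.7, 92.6 and 102 CPM in D1 saline. It held 73.4, 81.1 and 104 CPM in A2a cocaine day 40, 73.1, 77.5 and 88.1 CPM in A2a cocaine day 1 and 78.5, 79.9 and 90.5 CPM in A2a saline. In D1 neurons 5 of 8 day 40 libraries lay above every day 1 library, whereas day 40 and saline covered nearly the same span. The log2 change from day 1 was 0.21 ± 0.059 (edgeR adjusted p = 0.0433). Leaving out one library at a time ended the call for 12 of 16 libraries, at adjusted p of up to 0.0932: D1 cocaine day 40 replicates 2, 3, 4, 5, 6 and 7, and D1 cocaine day 1 replicates 1, 2, 4, 5, 6 and 8. The value itself ran from 0.19 to 0.25. Against saline, day 40 gave 0.047 ± 0.059 (adjusted p = 0.751) and day 1 gave -0.17 ± 0.059, an unadjusted p of 0.00686 and an edgeR adjusted p of 1. The other 4 eIF2B subunit genes had log2 values of -0.056 to 0.0078 between the days in D1 neurons, and none passed. Eif2s1, the eIF2 subunit that stress kinases phosphorylate, held 42.5, 46.8 and 50.2 CPM in D1 cocaine day 40 and 41.6, 46.3 and 50.8 CPM in D1 cocaine day 1 (log2 difference -0.0074, 95% interval -0.10 to 0.087).

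The helicase genes Eif4a1 and Eif4a2 had day 40 minus day 1 differences of opposite sign in D1 neurons. Eif4a1 (ENSRNOG00000030628) held 334, 353 and 373 CPM in D1 cocaine day 40, 355, 391 and 404 CPM in D1 cocaine day 1 and 351, 379 and 389 CPM in D1 saline. Eif4a1 held 353, 377 and 402 CPM in A2a cocaine day 40, 351, 412 and 441 CPM in A2a cocaine day 1 and 382, 406 and 423 CPM in A2a saline. The day 40 medians were below those of both day 1 groups in both neuron types, and the groups overlapped. Between the days the log2 difference was -0.12 ± 0.038 in D1 (edgeR adjusted p = 0.0805) and -0.13 ± 0.038 in A2a neurons (edgeR adjusted p = 0.131). Neither passed alone, and the A2a difference passed without the shallow A2a cocaine day 1 replicate 7 (adjusted p = 0.0363). Averaged over both neuron types Eif4a1 fell, by 0.12 ± 0.027 on the log2 scale (edgeR adjusted p = 0.00813). In that average 3 members passed, Eif4a1 lower and Eif1b (0.17 ± 0.040, edgeR adjusted p = 0.0131) and Eif1ax higher, or 6.52% of members against 1.78% of all genes.

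Eif4a2, the paralog that is abundant in brain, held 831, 940.2 and 986 CPM in D1 cocaine day 40 and 798, 859 and 925 CPM in D1 cocaine day 1, a log2 difference of 0.11 ± 0.053 (edgeR adjusted p = 0.31). It held 789, 857 and 1029 CPM in A2a cocaine day 40 and 799, 919.8 and 963 CPM in A2a cocaine day 1 (-0.056 ± 0.053). The ratio of Eif4a1 to Eif4a2 counts within a library had its lowest, median and highest at 0.347, 0.382 and 0.423 in D1 cocaine day 40, 0.406, 0.447 and 0.489 in D1 cocaine day 1 and 0.398, 0.44 and 0.498 in D1 saline. It had them at 0.387, 0.437 and 0.483 in A2a cocaine day 40, 0.413, 0.451 and 0.48 in A2a cocaine day 1 and 0.407, 0.458 and 0.519 in A2a saline. In D1 neurons 7 of 8 day 40 libraries lay below every day 1 library and below every saline library, and in A2a neurons 2 of 8 did. This ratio was chosen after the values were seen and was not tested. The annotation names 8 pseudogenes of Eif4a1 and 2 of Eif4a2, and both genes host small nucleolar RNA genes in their bounds.
The stretches before both starts are shown because the signs of this pair differed in D1 neurons. Eif4a1 is read at chr10:54888603-54888852 on the minus strand and Eif4a2 at chr11:91275324-91275573 on the minus strand, with capitals as above.
Eif4a1 upstream: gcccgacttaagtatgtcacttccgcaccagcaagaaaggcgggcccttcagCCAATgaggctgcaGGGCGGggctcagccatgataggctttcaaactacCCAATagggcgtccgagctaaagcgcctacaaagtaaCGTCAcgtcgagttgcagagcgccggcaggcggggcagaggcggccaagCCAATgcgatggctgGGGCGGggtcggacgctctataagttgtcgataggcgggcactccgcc
Eif4a2 upstream: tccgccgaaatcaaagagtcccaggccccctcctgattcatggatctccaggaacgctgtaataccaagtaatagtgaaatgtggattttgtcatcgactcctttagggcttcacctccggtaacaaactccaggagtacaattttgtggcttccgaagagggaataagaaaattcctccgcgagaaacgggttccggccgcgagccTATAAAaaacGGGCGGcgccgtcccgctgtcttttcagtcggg
Eif4a1 has 3 CCAAT boxes, 2 GC boxes and 1 half-site at 61.6% G and C, and Eif4a2 has 1 TATA box and 1 GC box at 51.6%.

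**Figure D3:**
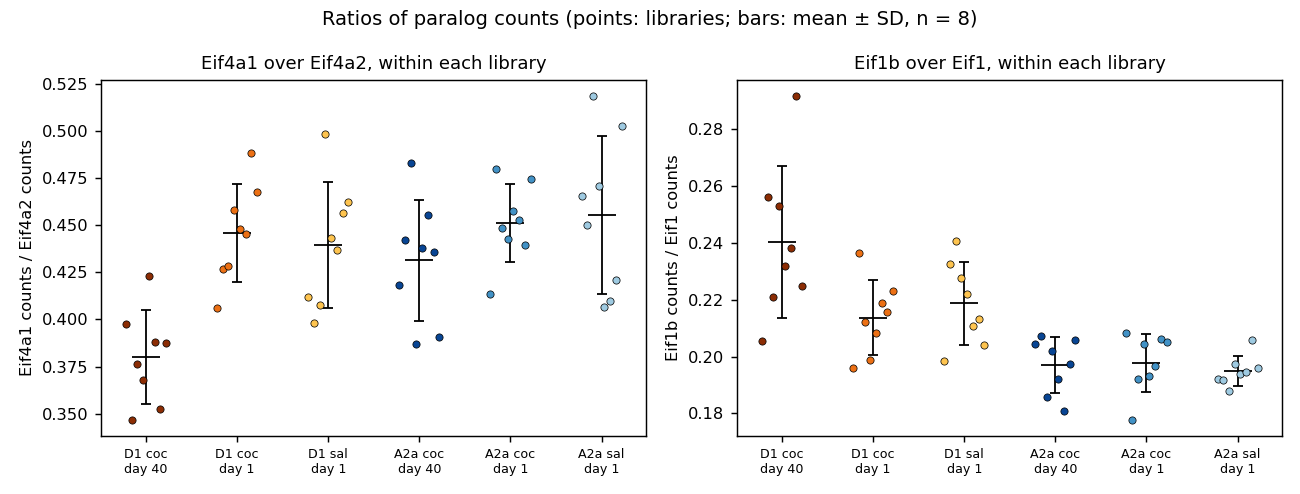
Ratios of paralog counts within each library (points), with mean and SD over 8 libraries in each of the 6 groups; axes do not start at 0. The Eif4a1 over Eif4a2 ratio has its lowest median, 0.382, in D1 cocaine day 40, and the Eif1b over Eif1 ratio its highest, 0.235, in the same group.

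The rest of the cap complex and its inhibitors gave no call in any drug or day comparison. Eif4e, the cap-binding protein gene, held 136, 141 and 174 CPM in D1 cocaine day 40 and 129, 139 and 147 CPM in D1 cocaine day 1 (log2 difference 0.082, 95% interval -0.021 to 0.18). Eif4g1, an eIF4G scaffold gene, held 25.6, 32.5 and 41.6 CPM in D1 cocaine day 40 and 29.8, 34.6 and 50.2 CPM in D1 cocaine day 1 (-0.21, -0.51 to 0.094). Its paralog Eif4g3 gave 0.011 (-0.089 to 0.11) in the same comparison. The mean of Eif4g3 over all libraries was 120.6 CPM on raw totals, against 37.3 CPM for Eif4g1. All 4 cap inhibitor genes lay below 0 in D1 neurons, from -0.044 for Eif4ebp3 to -0.40 for Eif4ebp2, and none passed. In A2a neurons 3 were below 0 and 1 above it, from -0.14 to 0.26, and over all genes 48.5% of D1 changes and 50.1% of A2a changes were above 0. Eif4ebp2 is known as the main 4E-binding protein gene of brain, but its entry had the lowest mean of these genes here. That mean was 3.48 CPM on raw totals, against 4.97 CPM for Eif4ebp1 and 22.4 CPM for Eif4ebp3. Eif4ebp2 held 1.83, 2.38 and 4.18 CPM in D1 cocaine day 40, 2.91, 3.3 and 5.03 CPM in D1 cocaine day 1 and 2.83, 3.86 and 4.39 CPM in D1 saline, and 5 of 8 day 40 libraries lay below every library of either day 1 group. The 95% interval of that day 40 difference from cocaine day 1 was -0.81 to 0.016 (edgeR adjusted p = 0.351), wide enough to hold 0. Eif4ebp1 held 2.76, 4.85 and 6.3 CPM in D1 cocaine day 40 and 2.88, 6.16 and 7.28 CPM in D1 cocaine day 1. Such low levels, with median within-group coefficients of variation of 26.3% for Eif4ebp2 and 26.4% for Eif4ebp1, limit what these libraries can resolve.

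The eIF3, eIF5A and eIF6 genes gave no call between the days either. The 12 eIF3 genes had median changes between the days of -0.0026 in D1 and -0.050 in A2a neurons, with 6 of 12 below 0 in D1 and 9 of 12 in A2a, and none passed. Eif5a, the hypusine-modified factor now known also for elongation, held 502, 548 and 579.9 CPM in D1 cocaine day 40 and 519, 579 and 609.9 CPM in D1 cocaine day 1 (-0.078, -0.17 to 0.016). Eif6, which keeps the large subunit from joining too early, held 94.2, 104 and 108 CPM in A2a cocaine day 40 and 72.5, 96.5 and 102 CPM in A2a cocaine day 1, where 5 of 8 day 40 libraries lay above all day 1 libraries (log2 difference 0.13 ± 0.052, edgeR adjusted p = 0.338). Eif3a held 115, 123 and 146 CPM in A2a cocaine day 40 and 121, 143 and 151 CPM in A2a cocaine day 1 (-0.16 ± 0.058, edgeR adjusted p = 0.244). The 95% intervals between the days lay within 0.3 of 0 for 37 of 46 members in D1 and 40 of 46 in A2a neurons.

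Against saline, drug and day differ together at day 40. In D1 neurons 1 member passed, Eif1b, or 2.17% against 2.61% of all genes, and 4 members (8.7%) had an unadjusted p under 0.05, against 16.2% of all genes. In the same comparison 3 of 5 microglia markers and 5 of 5 interferon-induced genes were lower in D1 cocaine day 40 than in D1 saline libraries, with sums of 63.4 to 113 CPM against 95.8 to 279.7 CPM and of 1.85 to 22.2 CPM against 16.6 to 85 CPM; their part in the result was not tested. In A2a neurons edgeR called 0 members, where it called 0% of all genes; 8 members (17.4%) had an unadjusted p under 0.05, against 5.38% of all genes, and DESeq2 called 0. The smallest p among them was that of Eif4a1 (-0.11 ± 0.038, edgeR adjusted p = 0.781), followed by Eif1b (0.14 ± 0.057) and Eif4e3, a cap-binding paralog gene (0.21 ± 0.085). Eif4e3 held 14.4, 16.8 and 19.1 CPM in A2a cocaine day 40 and 11.8, 14.6 and 16.3 CPM in A2a saline, with 5 of 8 above every saline library. Averaged over both neuron types 1 member passed, Eif1b (0.18 ± 0.040, edgeR adjusted p = 0.0187), or 2.17% against 0.488% of all genes. These comparisons share their day 40 libraries with the comparison of days, so the values are set side by side and are not independent of it.

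One day after the last session, cocaine and saline libraries were not told apart for any member. In D1 neurons 0 members passed edgeR's test, against 0% of all genes, and 1 (2.17%), Eif2b5, had an unadjusted p under 0.05, against 2.33% of all genes. In A2a neurons 0 passed, against 0.0706% of all genes, and 1 (2.17%) had an unadjusted p under 0.05, against 5.98% of all genes: Eif3c (0.17 ± 0.070). Eif3c, a core eIF3 subunit gene, held 129, 157 and 173 CPM in A2a cocaine day 1 and 119, 129.8 and 171 CPM in A2a saline, and the groups overlapped widely. DESeq2 called 0 in both. The 95% intervals lay within 0.3 of 0 for 40 of 46 members in D1 and 39 of 46 in A2a neurons. The tests of a difference between neuron types in these drug and day effects called 0 members for day 40 against day 1, 0 for day 40 against saline and 0 for cocaine against saline at day 1. All genes were called at 0.0642%, 0.154% and 0.00642% in the same order, and DESeq2 called 0 members in each. In that order 3, 1 and 0 members (6.52%, 2.17% and 0%) had an unadjusted p under 0.05, against 10.5%, 8.92% and 3.35% of all genes.

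The comparison of D1 with A2a neurons gave more calls than drug or day did. Averaged over the 3 conditions 15 members passed, 3 higher and 12 lower in D1, or 32.6% against 31.6% of all genes, so the members differed between neuron types about as often as genes at large. Of all genes 15.2% were called higher and 16.5% lower in D1. All 15 had one sign in all 3 conditions, and the Eif4e3 call was lost, at adjusted p of up to 0.0556, without any one of D1 cocaine day 1 replicates 5 and 6, D1 saline replicate 3, and A2a cocaine day 1 replicate 7. Higher in D1 were Eif4e1b, Eif1b and Eif2b5. Lower in D1 were Eif3a, Eif3b and Eif3d of eIF3, Eif2d, Eif2b2 and Eif2b4, Eif4a1, Eif4a3 and Eif4e3, Eif4ebp3, Eif5b and Eif1ad. Within single conditions 7 members passed at cocaine day 40 (15.2% against 20.4% of all genes), 4 at cocaine day 1 (8.7% against 11.1%) and 4 after saline (8.7% against 8.13%). Interneuron markers, given above, differed in the same comparisons. At cocaine day 40 the microglia markers summed to 63.4 to 113 CPM in D1 and 107 to 272 CPM in A2a libraries, with 4 of 5 called lower, and the interferon-induced genes to 1.85 to 22.2 CPM in D1 and 20.0 to 130.3 CPM in A2a libraries, with 5 of 5 called lower. The part of these cells was not tested.

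Eif3a (ENSRNOG00000010117), the largest eIF3 subunit gene, was lower in D1 neurons in each of the 3 conditions. It held 103, 107 and 130.02 CPM in D1 and 115, 123 and 146 CPM in A2a libraries at cocaine day 40. At cocaine day 1 it held 103, 117 and 129.5 CPM in D1 and 121, 143 and 151 CPM in A2a libraries. After saline it held 102, 114 and 118 CPM in D1 and 109.8, 129 and 149 CPM in A2a libraries. The groups overlapped each time, with 6, 5 and 3 of 8 D1 libraries below every A2a library. The log2 differences were -0.18 ± 0.058 at cocaine day 40, -0.26 ± 0.058 at cocaine day 1 and -0.22 ± 0.058 after saline (edgeR adjusted p = 0.02, 0.00143 and 0.00965). The day 40 call was lost, at adjusted p of up to 0.0839, without any one of these libraries: D1 cocaine day 40 replicate 5, and A2a cocaine day 40 replicates 1 and 3. The average was -0.22 ± 0.033 (edgeR adjusted p = 6.79e-07). Its upstream stretch, at chr1:269919026-269919275 on the minus strand, is shown because this member was called lower in D1 under every condition.
Eif3a upstream: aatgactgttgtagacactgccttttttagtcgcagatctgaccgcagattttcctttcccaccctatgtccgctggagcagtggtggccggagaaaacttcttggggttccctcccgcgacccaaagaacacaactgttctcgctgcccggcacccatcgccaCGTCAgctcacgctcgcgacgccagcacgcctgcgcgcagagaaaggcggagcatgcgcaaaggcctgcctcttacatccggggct
It holds 1 half-site and none of the other 4 motifs.

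**Figure D4:**
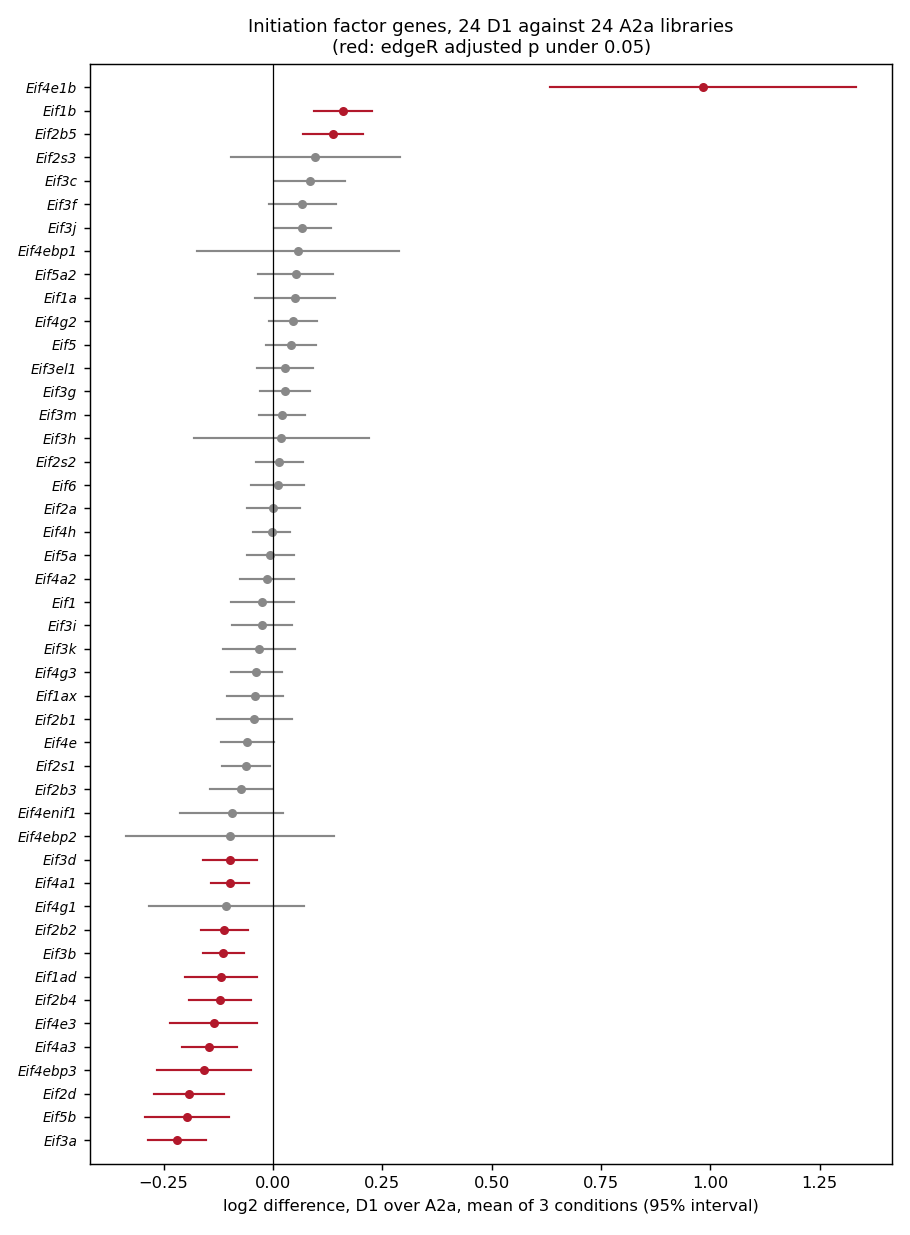
Log2 difference of D1 over A2a neurons averaged over the 3 conditions, with 95% intervals, for the 46 genes in order of size; red marks edgeR adjusted p under 0.05. In red, 12 genes lie left of 0, down to -0.22 for Eif3a, and 3 lie right of it, with Eif4e1b at 0.98.

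Other members were called in some conditions and not in others. Each of them had one sign in all 3 conditions and passed in the average. Eif2d, a factor for start sites without eIF2 and for ribosome recycling, held 18.6, 21.4 and 24.5 CPM in D1 and 22.1, 25.9 and 29.2 CPM in A2a libraries at cocaine day 40 (-0.27 ± 0.069, edgeR adjusted p = 0.00307). Eif3b, the eIF3 core gene, held 134, 141 and 156 CPM in D1 and 148, 156 and 169 CPM in A2a libraries in that condition, with 7 of 8 D1 libraries below every A2a library (-0.16 ± 0.041, edgeR adjusted p = 0.00414). Eif2b2, a regulatory eIF2B subunit gene, held 41.5, 43.2 and 47.4 CPM in D1 and 45.7, 50.6 and 53.8 CPM in A2a libraries, while the catalytic subunit gene Eif2b5 was higher in D1 (-0.18 ± 0.047 for Eif2b2 and 0.19 ± 0.059 for Eif2b5, edgeR adjusted p = 0.00307 and 0.0156). Subunits of one complex thus differed in opposite directions.
Eif1b was higher in D1 at cocaine day 40 (0.25 ± 0.057, edgeR adjusted p = 0.000976) and after saline (0.17 ± 0.057, edgeR adjusted p = 0.0458), and gave 0.059 ± 0.057 at cocaine day 1 (adjusted p = 0.588). At cocaine day 1 Eif4a3, a core gene of the exon junction complex rather than of cap recruitment, was lower in D1 (-0.17 ± 0.054, edgeR adjusted p = 0.0347), as was Eif1ad (-0.21 ± 0.071, adjusted p = 0.0462). After saline Eif5b, the subunit joining GTPase gene, was lower in D1 (-0.25 ± 0.083, edgeR adjusted p = 0.0464) and held 88.9, 101 and 118 CPM in D1 and 103, 121 and 158 CPM in A2a libraries. Among leave-one-out fits, the Eif4a3 call was lost in 5 of 16 (adjusted p up to 0.0799), that of Eif1ad in 7 (0.156), that of Eif5b in 10 (0.163) and that of Eif1b after saline in 12 (0.0992). The libraries behind the Eif4a3 losses were D1 cocaine day 1 replicates 1 and 2, and A2a cocaine day 1 replicates 2, 3 and 6, and behind those of Eif1ad D1 cocaine day 1 replicates 1, 2, 6 and 8, and A2a cocaine day 1 replicates 2, 3 and 5. Behind those of Eif5b they were D1 saline replicates 1, 2, 4, 5 and 8, and A2a saline replicates 1, 3, 4, 5 and 8, and behind those of Eif1b D1 saline replicates 2, 3, 4, 5 and 6, and A2a saline replicates 1, 2, 4, 5, 6, 7 and 8.

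Eif4e1b (ENSRNOG00000025480), a cap-binding paralog gene known from oocytes, had the largest difference between neuron types and the least secure counts. Raw counts were 25, 62.5 and 99 in D1 and 19, 33 and 58 in A2a libraries at cocaine day 40. They were 36, 47 and 63 in D1 and 1, 14.5 and 41 in A2a libraries at cocaine day 1, and 30, 44 and 62 in D1 and 10, 22 and 57 in A2a libraries after saline. The D1 medians were higher each time, with overlap. The log2 difference was 0.84 ± 0.30 at cocaine day 40, 1.2 ± 0.31 at cocaine day 1 and 0.91 ± 0.30 after saline (edgeR adjusted p = 0.0352, 0.00609 and 0.0476), and the calls at cocaine day 40 and after saline were lost in 8 and in 13 of 16 leave-one-out fits, at adjusted p of up to 0.102 and 0.108. The first was lost without any one of D1 cocaine day 40 replicates 2, 3, 4 and 6, and A2a cocaine day 40 replicates 1, 3, 5 and 6, and the other without any one of D1 saline replicates 1, 2, 3, 4, 5, 7 and 8, and A2a saline replicates 2, 3, 4, 5, 6 and 8. Over the conditions the difference averaged 0.98 ± 0.17 (edgeR adjusted p = 1.18e-05). In GRCr8 this gene overlaps Sncb, the beta-synuclein gene, whose counts ran from 1906 to 33539 per library, and the strand setting of the counting is not given, so reads of the pair cannot be told apart. Sncb was itself higher in D1, by 0.37 ± 0.053 on the log2 scale averaged over conditions (edgeR adjusted p = 1.23e-07).

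Eif3h and Eif2s3 each fell into 2 ranges among the libraries. Eif3h, an accessory eIF3 subunit gene, lay between 16.7 and 29.4 CPM in 8 libraries and between 35.6 and 50.6 CPM in the other 40. The 8 low libraries were spread over all groups: 2 in D1 cocaine day 40, 1 in D1 cocaine day 1, 1 in D1 saline, 1 in A2a cocaine day 40, 2 in A2a cocaine day 1 and 1 in A2a saline. Eif2s3, the eIF2 gamma subunit gene, lay between 64.8 and 81.6 CPM in 26 libraries and between 97.3 and 119 CPM in the other 22. The upper range held 4 of 8 libraries in each group except A2a saline, where it held 2 of 8. The Y-linked copy Eif2s3y was at 0 CPM on raw totals in all 22 libraries of the upper Eif2s3 range. It was at 43.1 to 58.5 CPM in all 26 of the lower range. The ranges of Eif3h and Eif2s3 were read from the widest gap between ordered libraries after the values were seen. The A2a cocaine day 1 minus saline difference of Eif2s3 was 0.23 ± 0.17. The part of the unequal Eif2s3 ranges in it, or in any other comparison with A2a saline, was not tested.

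**Figure D5:**
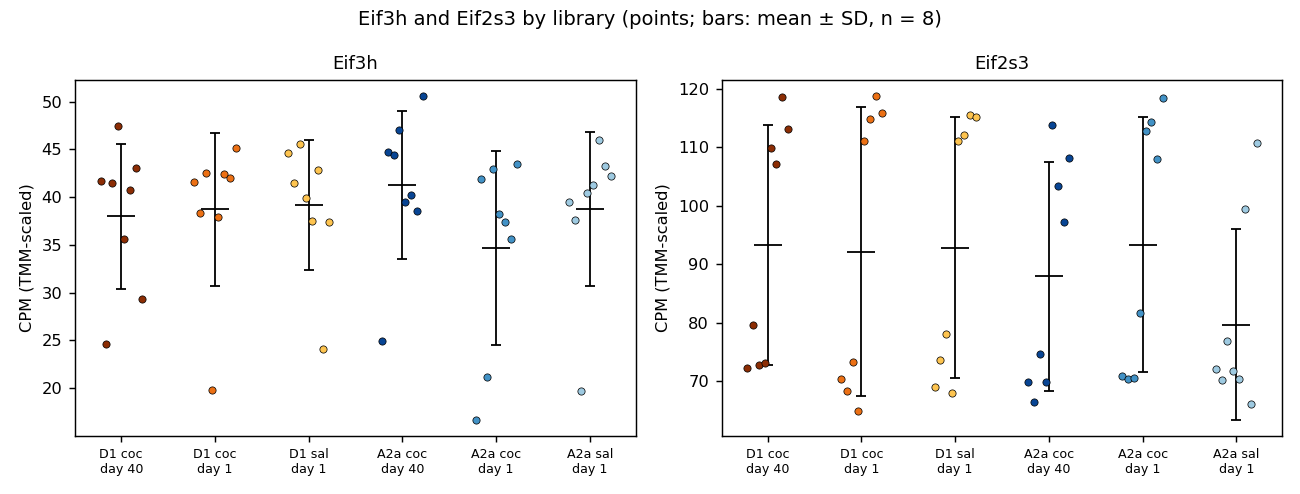
CPM of Eif3h and Eif2s3 in every library (points) of the 6 groups, with mean and SD over 8 libraries; axes do not start at 0. Each gene falls into a low and a high range with a gap between them, and both ranges occur in all 6 groups.

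Other genes of the pathway were read from lists of 6 eIF2 kinase and phosphatase genes, 9 eIF4F regulators, 4 recycling genes, 7 elongation genes, 2 termination genes, 1 mitochondrial initiation gene of 2 and 5 targets of the stress response. Between the days in D1 neurons 1 of these 34 tested genes fell and none rose: Pabpc1, the poly(A)-binding protein gene that bridges to eIF4G. It held 142, 159 and 180.1 CPM in D1 cocaine day 40, 178, 212 and 236 CPM in D1 cocaine day 1 and 188, 196 and 213 CPM in D1 saline, and the day 40 group overlapped the day 1 group and lay below every saline library; 0.905% of all genes did not overlap in the pair with saline. The day 40 change from day 1 passed (-0.36 ± 0.070, edgeR adjusted p = 0.0033). Against saline D1 day 40 libraries were lower in Pabpc1 (-0.29 ± 0.070, edgeR adjusted p = 0.0144) and in Eif2ak2 (-1.39 ± 0.32, adjusted p = 0.0106), the interferon-inducible kinase of eIF2; the 5 interferon-induced marker genes were lower in the same comparison. None of the 34 passed in any A2a drug or day comparison or in D1 at day 1. The stress response target Atf4, translated when eIF2 is phosphorylated, was higher in D1 than in A2a neurons at cocaine day 40 (0.23 ± 0.071, edgeR adjusted p = 0.0182) while Trib3 was lower (-1.71 ± 0.60, adjusted p = 0.0348). In that condition the eIF2 kinase gene Eif2ak4 (0.33), the Pabpc1 regulators Paip1 (0.20) and Paip2 (0.24) and the elongation gene Eef1b2 (0.26) were also higher in D1, and Eif2ak2 (-1.25) and Pabpc1 (-0.32) were lower. At cocaine day 1 the heme-regulated eIF2 kinase gene Eif2ak1 (0.24) and the elongation gene Eef1g (0.16) were higher in D1. The release factor gene Gspt1 was lower (-1.53), while none of the 34 passed after saline. Neither termination gene passed at cocaine day 40 or in the average over conditions. For Gspt1 the D1 over A2a value at cocaine day 1 less that after saline was -1.92 ± 0.72 (edgeR adjusted p = 0.999). The value at cocaine day 40 less that at cocaine day 1 was 2.00 ± 0.71 (edgeR adjusted p = 0.248). Of all genes, 20.4% were called between the neuron types at cocaine day 40, 11.1% at cocaine day 1 and 8.13% after saline. Within D1 neurons, 1.85% of all genes were called between the days and 2.61% between day 40 and saline.

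Messages of the translation apparatus that mTOR controls often begin with a pyrimidine tract. The tract was counted only where a C stood exactly at the RefSeq start with C or T in the next bases. Such a start was found in 1 of 42 members (2.38%), Eif2a. It was found in 22 of 78 ribosomal protein genes (28.2%) and in 2.63% of all promoters. A start annotated a few bases off would be missed, so these shares do not show which members lack a tract.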

How the data were processed

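RNA from TRAP pull-downs of 48 rats was sequenced, with 8 rats in each of 6 groups that follow the sample titles; the protocol counts 48 brains for 48 libraries, which were treated as separate animals. The authors deposited raw counts per Ensembl gene for 32883 entries, of which 12500 have no name. The submitters' processing notes list bcl2fastq, Trimmomatic, STAR, SAMtools and the build Rnor_6.0. Their versions, the counting program, the annotation release and whether strand was used are not given in the sources.

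edgeR 4.0.16 (R 4.3.3) was run on these counts. Its expression filter at a minimum count of 10 left 15580 genes. TMM factors set the library scale, and a single robust quasi-likelihood model with a mean for each group took in the 48 libraries. P-values were adjusted by Benjamini-Hochberg over all genes tested, with calls at 0.05. Log2 changes are first over second group with standard errors, and CPM use TMM-scaled totals unless raw totals are named. The comparisons were pairs of conditions within a neuron type, D1 against A2a within a condition, the differences between such effects, and averages. Members named with values were those called in any pair, the 3 with the smallest p in each pair, and a panel of 12 textbook factors; a few others are said to be chosen later or summarise a role. The members and lists were chosen with earlier results of these data known. Alternatives were DESeq2 1.42.0, other size factors, filters and fits, terms from the sample names, and leaving out each library. Among 168 pairs of libraries within groups none was a duplicate. The steps were tested on simulated data. Upstream stretches came from a RefSeq table of GRCr8, in which 19 members overlap another gene and 24 have named pseudogenes; counts of such genes are uncertain.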

Additional observations from a re-analysis of the deposited data

Results flagged for a closer look

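Of 276 groups of 8 libraries (46 genes in 6 groups), 30 (10.9%) held a library flagged by Dixon's test for 8 values. Its gap to the nearest neighbour, divided by the range of the group, was past the 95% critical value. Chance gives about 1 in 20 groups where groups are independent and values normal. The genes here share libraries, so the share flagged is not directly comparable with that rate. Values are CPM on TMM-scaled totals, and the group median follows each.

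A2a cocaine day 40 replicate 1 stood apart for Eif3h at 24.9 CPM (low, median 42.3), Eif4enif1 at 21.6 CPM (high, median 15.6), and Eif4g1 at 51.4 CPM (high, median 37.3). The library of A2a cocaine day 1 replicate 7, the shallowest of the study, stood apart for Eif4a3 at 119.9 CPM (low, median 148), Eif4ebp2 at 8.01 CPM (high, median 3.34), Eif4ebp3 at 36.8 CPM (high, median 22.5), Eif4g1 at 74 CPM (high, median 36.8), Eif4h at 388 CPM (low, median 434), and Eif6 at 72.5 CPM (low, median 96.5). A2a saline replicate 3 stood apart for Eif1ad at 96.5 CPM (high, median 76.3), Eif3h at 19.7 CPM (low, median 40.8), Eif3m at 176 CPM (high, median 156), and Eif5b at 158 CPM (high, median 121).

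Among D1 cocaine day 40 libraries, replicate 2 stood apart for Eif1a at 51.1 CPM (high, median 43.2). Replicate 4 did for Eif2s2 at 129 CPM (high, median 113) and Eif4e at 174 CPM (high, median 141). Replicate 5 did for Eif4ebp3 at 24.8 CPM (high, median 20.5). Replicate 7 did for Eif1ad at 57.6 CPM (low, median 74.2) and Eif4a3 at 103 CPM (low, median 131). Replicate 8 did for Eif5 at 223 CPM (high, median 206). In the D1 cocaine day 1 group, replicate 3 stood apart for Eif1a at 52.8 CPM (high, median 40.9). Replicate 4 did for Eif3h at 19.8 CPM (low, median 41.8). Within D1 saline, replicate 3 stood apart for Eif3g at 190.4 CPM (high, median 164). Replicate 4 did for Eif3el1 at 61.5 CPM (low, median 71.5) and Eif4a1 at 351 CPM (low, median 379). Replicate 6 did for Eif1 at 1135 CPM (high, median 1019). Replicate 7 did for Eif3h at 24 CPM (low, median 40.7). Of the A2a cocaine day 40 libraries, replicate 8 stood apart for Eif3f at 316 CPM (high, median 252). For A2a saline, replicate 1 stood apart for Eif4ebp3 at 20.2 CPM (low, median 25). Replicate 4 did for Eif3c at 171 CPM (high, median 129.9).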

How the results depend on the processing

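Under DESeq2, other size factors, 2 other filters, fits to only the groups compared, the title number as a replicate block and covariates from the descriptions, no gene result reversed: 346 of 363 kept their direction and side of the threshold, 15 no longer passed and 2 newly passed, Eif4a1 between the days with DESeq2 in D1 (DESeq2 adjusted p = 0.0374) and in A2a neurons (0.0307). With no low-count filter the lost calls, with edgeR adjusted p, were Eif2b5 in D1 day 40 against day 1 (0.0636), Eif4a3 (0.0579) and Eif1ad (0.062) in D1 against A2a at cocaine day 1, Eif5b (0.0616) and Eif4e1b (0.0669) after saline, and Eif4e3 in the average (0.0611). In fits to only the groups compared they were Eif2b5 (0.0697), Eif1ad (0.0829) and Eif4e1b at cocaine day 40 (0.0644) and after saline (0.0585). Eif1b after saline was lost with RLE factors (0.0526), Eif1ad with the first number (0.0571) and the middle number (0.0506), and Eif4e1b after saline with the middle number (0.108). Of 109 counts of called members, 101 stayed within 1.5 times. The 101 include comparisons that began at 0 calls and stayed there, such as cocaine against saline at day 1. With no low-count filter the count was 1 for D1 day 40 against day 1 after cocaine, 2 for D1 against A2a at cocaine day 1 and 2 after saline. In fits to only the groups compared it was 1 for D1 day 40 against day 1 and 2 for the averaged day 40 against saline, which was also 2 with the filter at a mean CPM of 1 and with DESeq2. DESeq2 gave 1 for A2a day 40 against day 1. The cause was not tested.

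Leaving out single libraries gave counts of 1 to 2 for D1 day 40 against day 1, 0 to 1 for A2a day 40 against day 1 (1 without A2a cocaine day 1 replicate 7) and 0 to 1 for D1 day 40 against saline (0 without D1 saline replicate 1). The counts ran from 5 to 9, 2 to 5 and 1 to 5 for D1 against A2a at cocaine day 40, at cocaine day 1 and after saline. Averaged, they ran from 2 to 4 for day 40 against day 1, 1 to 2 for day 40 against saline and 14 to 16 for D1 against A2a, and were 0 throughout in the other comparisons.

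Same-numbered libraries correlated above 0.1 in 27 of 120 pairs (median 0.0495, range -0.183 to 0.315). Libraries with unlike numbers were not correlated, so these values cannot show whether the title numbers pair animals. The main model used no pairing. With the replicate block every count of called members was as without it or within 1.5 times, for example 2 for D1 day 40 against day 1. One gene call was lost under the block, Eif4e1b in D1 against A2a after saline (0.93, edgeR adjusted p = 0.0535). Genes near 1 CPM, the overlap with Sncb and pseudogene copies limit single values, and the smallest library held 5293586 counts.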

Other observations

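Eif2s3y is the Y-linked copy of the eIF2 gamma subunit gene that the name rule leaves out. On raw totals it was at 0 CPM in all 22 libraries of the upper Eif2s3 range. It was at 43.1 to 58.5 CPM in all 26 libraries of the lower range. Labels do not give the sex of each library, and no comparison was made between these libraries.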
